A study of Mus musculus with 367 samples.

Results

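Matricellular proteins are secreted into the matrix around cells, where they alter adhesion and signalling more than they add structure. The 10 genes described here, Postn, Tnc, Thbs1, Thbs2, Thbs3, Sparc, Sparcl1, Spp1, Fn1 and Cilp, were taken by name, out of 50600 genes in the deposited tables. The rule names genes and uses none of their values, but the list was drawn up with earlier results of these data known. Single wound cells were sequenced in 7 microfluidic captures, 3 from post-wounding day (PWD) 12, 2 from PWD15 and 2 from PWD21. All mice carried Sm22-Cre and the tdTomato reporter on a mixed background, were 3 to 8 weeks old, and had a full-thickness excisional wound of 1.5 by 1.5 cm on the back. The paper's methods give a narrower range of ages with the same upper limit, and the use of male and female mice. Sm22-Cre is driven by the promoter of Tagln, a gene of contractile cells, and a cell stays tdTomato-positive after that promoter falls silent. Tissue of 2 to 3 mice per time point was pooled, and viable cells with high tdTomato were sorted, so that no group holds unsorted wound cells or unwounded skin. The labels do not say how the mice were divided over the captures of a day, so the p-values measure the spread between captures, which may be technical in part.

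Of 367 cells, 292 passed the cell filters and were placed by the levels of 3 genes that are not among the 10. Matrix cells (198) held Col1a1 of at least 1000 FPKM (fragments per kilobase of transcript, scaled to the cell's mapped fragments, so a level per length), with Rgs5 below 100 and Tyrobp below 50. Mural cells (57) held Rgs5, a gene of pericytes and vascular smooth muscle, at 500 or more with Tyrobp below 50. Myeloid cells (26) held Tyrobp, an adaptor protein of myeloid receptors, at 500 or more, and 11 cells fell into none of these kinds. Genes that go with Col1a1, Rgs5 or Tyrobp are favoured by these gates. The part of this in the differences between kinds was not tested. The marker lists include the gate genes, so their sums are in part set by the gates. The mural list summed to 7898 to 9265 FPKM in mural cells and 24.5 to 55.2 in matrix cells. Rgs5 alone averaged 7311 FPKM in mural cells. Apart from Rgs5, mural means ran from 25.8 FPKM (Cspg4, 2.02 in matrix cells) to 407 (Cox4i2, 2.54 in matrix cells). The myeloid list summed to 24430 to 39900 FPKM in myeloid cells and at most 74.2 in the other kinds. The matrix list summed to 22480 to 42910 FPKM in matrix cells, but reached 19660 in mural and 15460 in myeloid cells. Tagln itself was detected in 128 matrix, 50 mural and 3 myeloid cells. Among markers of cells that the sort could also have held, Cldn5, Krt5 and Krt1 were listed at 0 in all 3 kinds, and the summed endothelial and T cell lists stayed at or below 1.34 and 0.253 FPKM in every capture. The keratinocyte list, almost all of it Krt10, reached 17.1 FPKM (mural cells of PWD12 capture 1), and the Schwann cell list reached 75.98 in mural and 37.96 in matrix cells of PWD12 capture 2. The part of these RNAs in the results was not tested. RNA of Y-linked genes reached 10 FPKM in 18, 0 and 22 cells of PWD12 captures 1, 2 and 3, in 16 and 0 cells of PWD15 captures 1 and 2, and in no cell of either PWD21 capture. PWD12 capture 2, PWD15 capture 2 and both PWD21 captures thus had no cell with Y-linked RNA at that level, so the captures of PWD12, and those of PWD15, did not draw their cells alike from male and female mice.

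Matricellular genes are best known from healing wounds, fibrosis and development. Periostin (Postn) and tenascin C (Tnc) are secreted by activated fibroblasts and bind integrins and other matrix proteins, while fibronectin (Fn1) forms the early fibrillar scaffold on which collagen is laid down. Thrombospondins of the first subgroup (Thbs1 and Thbs2) bind CD47, CD36 and integrins and restrain blood vessel growth. Sparc and its relative Sparcl1 (hevin) bind collagen and take part in fibril assembly, osteopontin (Spp1) is an integrin and CD44 ligand made by macrophages, bone cells and others, and Cilp, first described in cartilage, binds transforming growth factor beta.

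In the mm10 build Postn is at chr3:54361109-54391037 (plus strand), Tnc at chr4:63959785-64047015 (minus), Fn1 at chr1:71585520-71653200 (minus) and Cilp at chr9:65265180-65280605 (plus). Thbs1 is at chr2:118111876-118127133 (plus), Thbs2 at chr17:14665500-14694235 (minus) and Thbs3 at chr3:89215180-89226837 (plus). Sparc is at chr11:55394500-55423183 (minus), while Sparcl1 at chr5:104079111-104113733 (minus) and Spp1 at chr5:104435118-104441050 (plus) are on the same chromosome. All are protein-coding, and the values refer to whole genes.

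The promoters of 4 of the genes are shown because these 4 were lower together in mural cells than in matrix cells. The 250 bases before the RefSeq transcript start (build GRCm38.p6) are written 5′ to 3′ on the strand of the gene. Both strands were searched for 3 short motifs. The first was the TATA box, with the letters TATAAA. The second was the site of the nuclear factor Y complex, with the letters CCAAT. The third was the site of the AP-1 factors, with the letters TGACTCA. Capitals mark each match, in the letters of the strand shown. Windows were matched by symbol for 7 of the 10 genes, all but Sparcl1, Thbs1 and Fn1. Postn has another RefSeq start, whose window held none of the motifs.
Postn, chr3:54360857-54361106, plus strand: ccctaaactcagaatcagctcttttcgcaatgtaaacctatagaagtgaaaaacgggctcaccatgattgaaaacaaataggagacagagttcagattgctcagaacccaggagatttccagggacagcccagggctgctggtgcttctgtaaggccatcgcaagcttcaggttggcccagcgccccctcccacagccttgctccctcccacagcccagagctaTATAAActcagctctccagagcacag
Thbs2, chr17:14694263-14694512, minus strand: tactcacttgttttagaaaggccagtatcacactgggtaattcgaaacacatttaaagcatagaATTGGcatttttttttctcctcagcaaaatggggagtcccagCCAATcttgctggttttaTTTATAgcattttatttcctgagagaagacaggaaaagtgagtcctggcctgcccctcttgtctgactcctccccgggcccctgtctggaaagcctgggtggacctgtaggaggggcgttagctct
Sparc, chr11:55420081-55420330, minus strand: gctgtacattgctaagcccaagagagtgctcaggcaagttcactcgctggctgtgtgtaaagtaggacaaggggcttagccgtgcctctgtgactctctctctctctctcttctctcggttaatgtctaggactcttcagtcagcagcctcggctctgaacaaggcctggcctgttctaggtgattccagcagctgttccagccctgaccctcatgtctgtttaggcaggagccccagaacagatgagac
Cilp, chr9:65264930-65265179, plus strand: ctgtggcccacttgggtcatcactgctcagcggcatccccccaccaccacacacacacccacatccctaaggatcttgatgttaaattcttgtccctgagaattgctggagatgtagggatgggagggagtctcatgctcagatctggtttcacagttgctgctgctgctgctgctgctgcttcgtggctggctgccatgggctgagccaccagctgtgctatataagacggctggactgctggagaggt
The TATA box letters began 26 bases before the start of Postn. The Thbs2 window held the nuclear factor Y letters on the opposite strand 186 bases and on the same strand 144 bases before the start. It also held the TATA box letters on the opposite strand at 126. None of these letters stood in the Sparc and Cilp windows. Only exact letters were sought, so the letters tatataag near the end of the Cilp window were not marked. Over all 32851 promoter windows of this length, the TATA box letters were found in 12.4%, the nuclear factor Y letters in 33.85% and the AP-1 letters in 4.46%, and the matches are given as a description only.

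In matrix cells the 10 genes spanned more than 3 orders of magnitude, and Sparc stood near the top of the whole transcriptome. Averaged over the 7 captures, Sparc was at 17440 FPKM, rank 2 among the 13552 genes that averaged 1 FPKM or more, and Postn was at 3183 FPKM, rank 25. Fn1 (537 FPKM, rank 207), Thbs2 (486, rank 233) and Spp1 (249, rank 491) followed. Tnc (100.5), Cilp (89.8) and Thbs3 (77.1) lay lower, and Thbs1 (31.6) and Sparcl1 (10.5) were the lowest. Sparc, Thbs2 and Fn1 were detected in all 198 matrix cells and Postn in 196. Tnc was detected in 159 of them, Thbs1 in 160, Sparcl1 in 95, Cilp in 88, Spp1 in 54 and Thbs3 in 50. Together the 10 genes took 2.29 to 4.05% of a matrix cell's FPKM on average in each capture, 0.964 to 1.44% in mural cells and 0.0045 to 0.698% in myeloid cells. The 11 cells of no kind held Sparc at 2314 to 37390 FPKM and Postn at 295 to 8338, and all 11 had both RNAs.

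**Figure D1:**
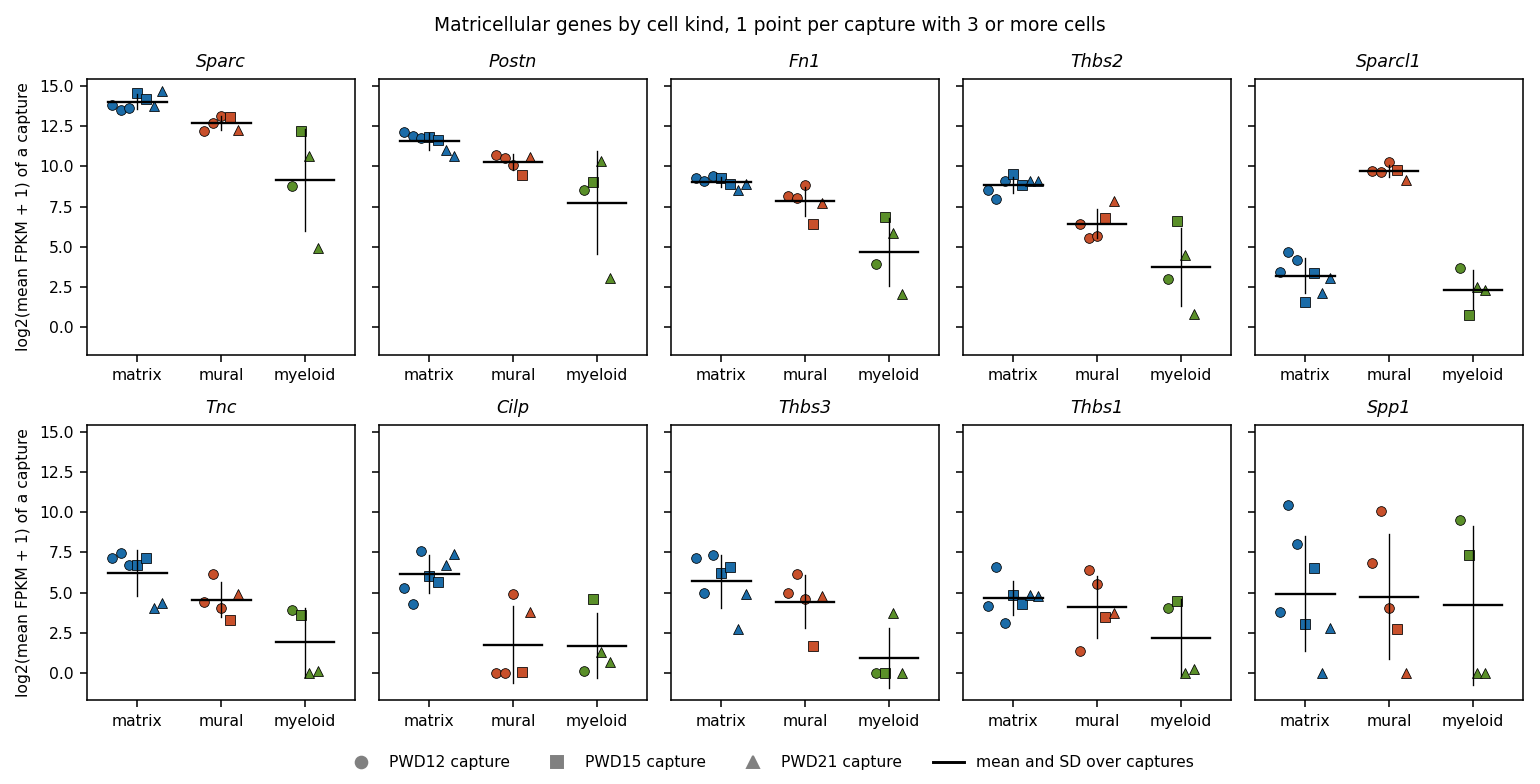
Each point is log2(mean FPKM + 1) of 1 gene over the cells of 1 kind in 1 capture with 3 or more such cells (7 captures for matrix, 5 for mural and 4 for myeloid cells), with marker shape for the day; lines are the mean and SD over captures. Sparcl1 is the gene with all mural captures above all matrix captures, and Spp1 spans almost its whole range within each kind.

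Mural cells were compared with matrix cells to ask which matricellular genes separate cells with high Rgs5 from cells gated on Col1a1. The paper counts its Rgs5-marked cells as wound fibroblasts and places most RGS5-stained cells outside blood vessels. Mural is thus a name for the gate here, and all 57 mural cells had Col1a1 RNA. Sparcl1 was far higher in mural cells, and Sparc, Postn, Thbs2 and Cilp were lower. The test was made on log2(mean FPKM + 1) in 5 captures that held at least 3 cells of both kinds, with the capture as a block, by limma. With an adjusted p below 0.05 as the call, 5 of the 10 genes were called, 1 higher and 4 lower, where 1.71% of the 13823 genes tested were called, 0.948% higher and 0.76% lower. The median log2 difference was -1.26 over the 10 genes and -0.22 over all genes. In a mean over cells, less RNA per cell and fewer cells with the RNA cannot be told apart. The number of mural cells with each RNA is therefore given as well. Postn and Fn1 were each detected in 56 of the 57 mural cells. Tnc was detected in 42 of them, Thbs1 in 37, Spp1 in 13 and Thbs3 in 10, and the counts of the other 4 genes follow.

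Sparcl1 was at 837, 790 and 1213 FPKM in mural cells of the 3 PWD12 captures, at 870 in PWD15 capture 1 and at 574 in PWD21 capture 1. The matrix cells of the same captures held 9.99, 24.1, 17.2, 1.97 and 3.298 FPKM. The ranges lay far apart and all 57 mural cells had the RNA. The log2 difference was 6.51 (SE 0.49, limma adjusted p = 0.00017), a 91.2-fold higher level on the log2(FPKM + 1) scale, and it was called under all 14 alternatives, with values of 5.42 to 7.66.

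Sparc, the close relative of Sparcl1, went the other way at a much smaller size. Mural cells held 4671, 6754 and 8887 FPKM at PWD12, 8620 at PWD15 and 4884 at PWD21, against 14220, 11480, 12680, 24760 and 14000 in the matrix cells of those captures. Every mural value was below every matrix value, yet each mural cell still contained Sparc RNA and the gene ranked 10 by level in that kind. The log2 difference was -1.19 (SE 0.15, limma adjusted p = 0.0039), or 2.27-fold lower, in 5 of 5 captures.

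Postn was lower in mural cells of all 5 captures. Its mural means were 1700, 1474 and 1107 FPKM at PWD12, 697 at PWD15 and 1531 at PWD21, beside matrix means of 4551, 3722, 3523, 3571 and 2115. The log2 difference was -1.45 (SE 0.22, limma adjusted p = 0.0097). The gap was narrowest at PWD21, with a capture-wise difference of -0.47 where the others were -1.34 to -2.36.

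Thbs2 had the clearest difference among the thrombospondins. Its means of 85.6, 45.6, 49.8, 107 and 226 FPKM in mural cells (in the same order of captures) lay below all matrix means, which were 361, 252, 538, 725 and 538. The log2 difference was -2.38 (SE 0.35, limma adjusted p = 0.0086). The RNA was still detected in 54 of 57 mural cells, with a median of 16.1 FPKM against 447 in matrix cells.

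Cilp was nearly absent from mural cells. It was listed at 0 in all mural cells of PWD12 captures 1 and 2, averaged 29.1 FPKM in PWD12 capture 3 and 0.06 in PWD15 capture 1, and 12.6 in PWD21 capture 1, and 9 of 57 mural cells had any. The matrix cells of those captures held 37.1, 18.2, 189, 64.9 and 105 FPKM, so the ranges overlapped between captures while each capture had less in its mural cells. The log2 difference was -4.22 (SE 0.67, limma adjusted p = 0.013), a value that depends on the pseudocount, since 2 mural means were 0. Without PWD12 capture 1 its adjusted p was 0.054, and without PWD15 capture 1 it was 0.055. With no filter on low values none of these 4 genes passed, with adjusted p of 0.27 for Sparc and Postn and 0.16 for Thbs2 and Cilp, and with no variance trend Sparc (0.31), Postn (0.24) and Thbs2 (0.093) did not.

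The remaining 5 genes did not pass the test. Fn1 had a log2 difference of -1.28 (SE 0.33, limma adjusted p = 0.10), negative in 5 of 5 captures, and Tnc one of -1.86 (SE 0.64, adjusted p = 0.21), negative in 4 of 5. Without PWD21 capture 1, where Tnc was at 29.4 FPKM in mural and 15.3 in matrix cells, the Tnc difference was -2.55 with an adjusted p of 0.049. Thbs3 had a log2 difference of -1.24 (SE 0.90), Thbs1 of -0.61 (SE 0.73) and Spp1 of -0.30 (SE 0.84), all with captures on both sides of 0. Thbs3 overlaps Mtx1 on the opposite strand, whose mean over all kept cells was 67.6 FPKM beside 55.5 for Thbs3, and the strand of the counted reads is not stated in the sources used here.

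**Figure D2:**
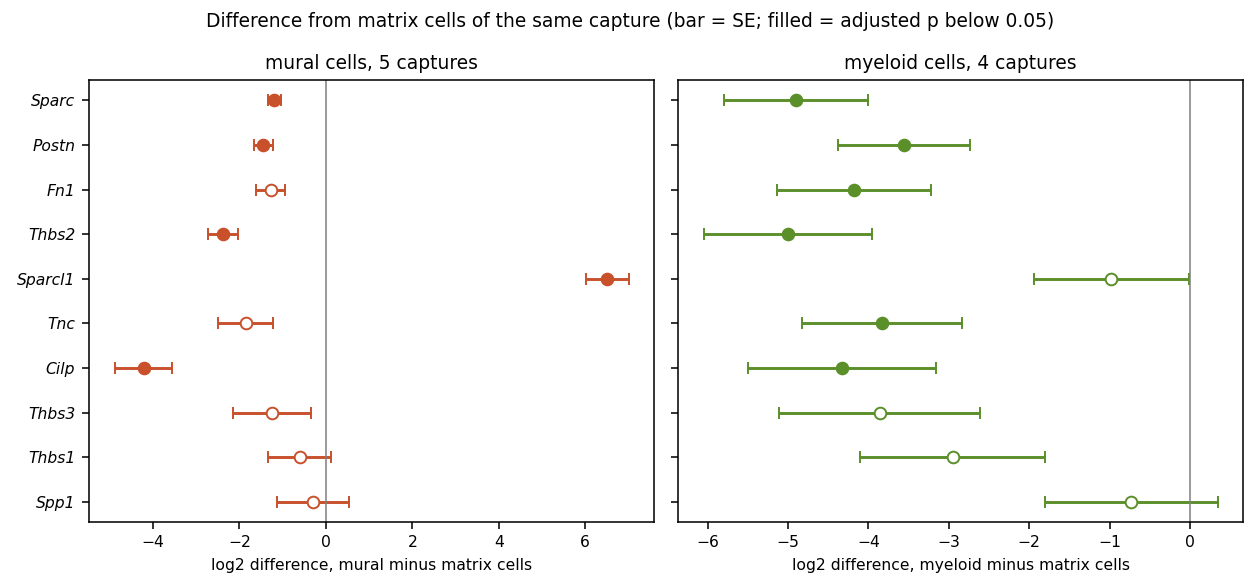
Points are the log2 difference of each gene from the matrix cells of the same capture, with the SE from limma, for mural cells (left, 5 captures) and myeloid cells (right, 4 captures); filled points passed an adjusted p of 0.05. The 5 filled points on the left are Sparcl1 to the right of 0 and Sparc, Postn, Thbs2 and Cilp to its left, while the 6 filled points in the right panel are all to the left of 0.

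Mural cells were not uniform in these RNAs. Of the 57 cells, 19 also held Col1a1 of at least 1000 FPKM, and in these the median was 2115 FPKM for Postn, 129 for Thbs2 and 307 for Fn1. In the other 38 cells the medians were 307, 4.43 and 67.9 FPKM. The Sparcl1 medians stood in the opposite order, 191 FPKM in the 19 cells and 877 in the 38. The split was made on Col1a1, the gene of the matrix gate, so genes that go with Col1a1 are favoured by it. Cells of all captures and days were pooled, and the medians are given as a description. The 19 cells also had more detected genes (median 8086 against 4834) and more estimated fragments (median 1872000 against 1157000). Per the study's methods, wells were imaged and those with more than 1 cell were left out, and no doublet test was made here on the values.

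Whether the difference between mural and matrix cells itself changed with time was tested on the capture-wise differences, 3 captures of PWD12 against 2 later ones. None of the 13823 genes passed (0%), with a smallest adjusted p of 0.902 and 737 genes at an unadjusted p below 0.05, none of them among the 10. With 3 captures against 2 the comparison could hardly have called a gene, since it also missed every change planted in simulated data. For Sparcl1 the later captures had a difference larger by 1.87 (SE 1.60), and for Postn larger by 0.06 (SE 1.09).

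Myeloid cells were compared with matrix cells in the 4 captures with at least 3 cells of both kinds, PWD12 capture 2, PWD15 capture 2 and both PWD21 captures. Sparc, Postn, Thbs2, Fn1, Tnc and Cilp were lower in myeloid cells, and none of the 10 was higher. These 6 of 10 calls stand beside 6.59% of all 13059 genes called, 4.9% lower and 1.69% higher, and beside a median log2 difference of -3.85 over the 10 genes and -1.0 over all genes. The call rests on few cells: without PWD12 capture 2 none of the 10 was called and 108 genes in all were, without PWD21 capture 1 the counts were 3 and 179, and without PWD21 capture 2 they were 2 and 214. Without PWD15 capture 2, they were 4 and 340.

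Sparc in myeloid cells averaged 434 FPKM in PWD12 capture 2, 4770 in PWD15 capture 2, and 1621 and 28.95 in the PWD21 captures, against 11480, 18990, 14000 and 25970 in matrix cells. The log2 difference was -4.90 (SE 0.89, limma adjusted p = 0.015). Postn averaged 361, 524, 1288 and 7.49 FPKM in myeloid cells against 3722, 3196, 2115 and 1599 in matrix cells (log2 difference -3.56, SE 0.82, adjusted p = 0.033). Both genes were lower in every capture, by amounts that differed widely between captures.

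Thbs2 was at 7.13, 96.4, 21.0 and 0.793 FPKM in myeloid cells (log2 difference -5.00, SE 1.05, limma adjusted p = 0.026), and Fn1 at 14.2, 117, 56.1 and 3.12 FPKM (-4.18, SE 0.96, adjusted p = 0.033). Tnc had a log2 difference of -3.83 (SE 0.99, adjusted p = 0.045) and Cilp of -4.33 (SE 1.17, adjusted p = 0.049). All 4 were lower in 4 of 4 captures. Thbs3 (-3.86, SE 1.25) and Thbs1 (-2.95, SE 1.15) did not pass, and Sparcl1 (-0.98, SE 0.96) and Spp1 (-0.73, SE 1.07) had differences near the median of all genes.

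Most of the Sparc and Postn of the myeloid kind was in 4 of its 26 cells. These 4 cells, 1 in PWD12 capture 2, 2 in PWD15 capture 2 and 1 in PWD21 capture 1, also held Col1a1 of at least 1000 FPKM, beside Tyrobp of 1343 to 2708 FPKM and Lyz2, a lysozyme gene of macrophages, of 735 to 7509. Their Sparc was 4673, 7299, 11500 and 8095 FPKM and their Postn 3911, 638, 1439 and 6442 FPKM. The other 22 cells held at most 256 FPKM of Sparc (median 6.79), 29.2 of Postn (median 1.61), 2.38 of Thbs2 and 31.5 of Fn1. Leaving the 4 cells out, a choice made after the data were seen, removed PWD15 capture 2 from the comparison for lack of cells and gave log2 differences of -10.60 for Sparc, -9.20 for Postn, -8.29 for Thbs2 and -6.27 for Fn1. Since these cells were left out for a matrix gene of the gate, the larger differences follow from the choice and are given as a description. Their median of detected genes was 6374, against 4919 in the other 22. The labels do not say which deposited cells passed the study's exclusion of wells with more than 1 cell, and no doublet test was made.

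Matrix cells were then compared between days, to follow the genes as the wound went from PWD12 to PWD21. None of the 10 genes was called between any pair of days by limma on the capture means, beside 0% of 13552 genes called for PWD15 against PWD12, 0.00738% for PWD21 against PWD12 (Gm2564 alone, named because it is the single call) and 0% for PWD21 against PWD15. At an unadjusted p below 0.05 there were 1, 5 and 3 of the 10 genes and 791, 968 and 745 of all genes. The comparisons share captures, so the values of the days are given side by side below.

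Tnc had the lowest adjusted p of the 10. Its matrix cell means were 143, 177 and 105 FPKM in the PWD12 captures and 105 and 140 FPKM in the PWD15 captures, but 15.3 and 19.1 FPKM in the PWD21 captures. Both PWD21 values lay below all others. The log2 difference of PWD21 from PWD12 was -2.94 (SE 0.45, unadjusted p = 5.02e-05, limma adjusted p = 0.097), and from PWD15 it was -2.76 (SE 0.49, adjusted p = 0.43). Tnc was detected in 70 of 74, 62 of 72 and 27 of 52 matrix cells at PWD12, PWD15 and PWD21, and reached 100 FPKM in 36, 25 and 2 of them.

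Postn ran in the same order at a smaller size. The PWD12 captures averaged 4551, 3722 and 3523 FPKM, those of PWD15 3571 and 3196, and those of PWD21 2115 and 1599. The PWD21 values again lay below all others, as did those of Fn1, Thbs3 and Spp1. The share of all genes separated in this way was not counted. The log2 difference of Postn from PWD12 was -1.09 (SE 0.23, limma adjusted p = 0.29). Nearly all matrix cells kept the RNA, 74 of 74, 72 of 72 and 50 of 52, and the cell medians were 3773, 3090 and 1696 FPKM.

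Both genes passed when the means were taken over log2(FPKM + 1) of single cells, where cells with little RNA weigh more. Tnc then differed by -4.18 (SE 0.65, limma adjusted p = 0.0016) and Postn by -2.03 (SE 0.40, adjusted p = 0.014) between PWD21 and PWD12. In that setting 70 of 13552 genes were called in all. It was the only 1 of 16 alternatives in which either gene passed between these days. Neither PWD21 capture had a cell with Y-linked RNA at 10 FPKM. The others without it, PWD12 capture 2 and PWD15 capture 2, held Tnc at 177 and 140 FPKM and Postn at 3722 and 3196. This is a single capture for each of these days, and the part of the sex of the mice in the day differences was not tested. The age of the wound and the run of the captures cannot be told apart, since no capture holds 2 days.

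Fn1, Thbs3 and Cilp did not pass either. Fn1 averaged 606, 548 and 685 FPKM at PWD12, 607 and 472 at PWD15, and 370 and 471 at PWD21 (log2 difference -0.55, SE 0.30, limma adjusted p = 0.74). Thbs3 averaged 141, 29.8 and 164 FPKM, then 73.5 and 97.4, then 5.50 and 28.7 (-2.69, SE 0.82, adjusted p = 0.52), and the 10% of matrix cells with the most RNA held 91.7% of it. Cilp averaged 37.1, 18.2 and 189 FPKM, then 64.9 and 49.9, then 105 and 165 (1.35, SE 0.81, adjusted p = 0.76), and was detected in 31 of 74, 25 of 72 and 32 of 52 cells.

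Sparc, Thbs2 and Thbs1 did not pass between any days. Sparc was at 14220, 11480 and 12680 FPKM at PWD12 and 24760 and 18990 at PWD15 (log2 difference 0.77, SE 0.25, limma adjusted p = 0.71), while the PWD21 captures were as far apart as 14000 and 25970 FPKM. Thbs2 was at 361, 252 and 538, then 725 and 454, then 538 and 533 FPKM. Thbs1 was at 16.7, 95.8 and 7.70, then 27.6 and 18.8, then 28.03 and 26.3 FPKM, with PWD12 capture 2 as the highest value.

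**Figure D3:**
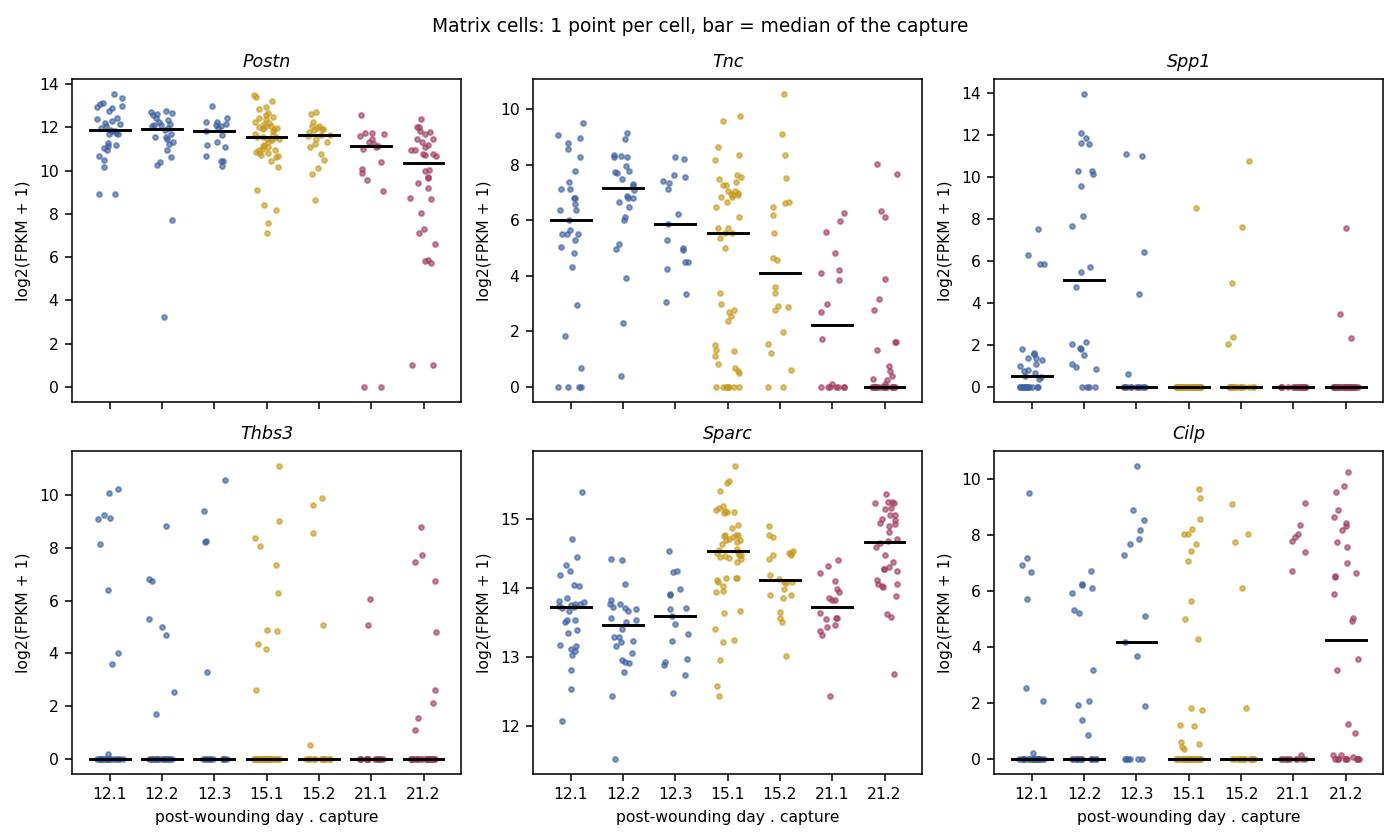
Each point is log2(FPKM + 1) of 1 gene in 1 of the 198 matrix cells, by post-wounding day and capture, and each bar is the median of a capture; the vertical scales differ between genes. The Tnc bars of the PWD21 captures lie below those of the other captures, the Postn bars too, and high Spp1 values crowd in PWD12 capture 2.

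Spp1 was the most uneven of the 10. Its matrix cell means were 12.6, 1374 and 255 FPKM in the PWD12 captures, 7.31 and 89.9 at PWD15, and 0 and 5.98 at PWD21. PWD12 capture 2 had Spp1 in 22 of 26 matrix, 5 of 7 mural and 8 of 11 myeloid cells. All other captures together, most of them of later days, had it in 32 of 172 matrix, 8 of 50 mural and 3 of 15 myeloid cells. Of the same day, PWD12 captures 1 and 3 had it in 18 of 31 and 5 of 17 matrix cells. In mural cells they had it in 2 of 9 and 5 of 14, and in myeloid cells in 1 of 2 and 1 of 1. By day, Spp1 was found in 45 of 74 matrix cells at PWD12 (23 of 48 without capture 2), in 6 of 72 at PWD15 and in 3 of 52 at PWD21. Of 16 cells with at least 1000 FPKM, 12 came from that capture. In PWD21 capture 1 the gene was listed at 0 in all 18 matrix cells, and 3 of 18, or 16.7%, is the limit this sets on the share of cells with detected RNA, not of cells expressing the gene. The log2 difference of PWD21 from PWD12 was -6.00 (SE 1.68, limma adjusted p = 0.48). It leans on the capture mean of 0 and on single captures, with -4.48 without PWD12 capture 2, -7.81 without PWD12 capture 1, -4.59 without PWD21 capture 1, and -4.0 and -7.72 with pseudocounts of 10 and 0.1. A share of 37.7% of the whole matrix cell signal of Spp1 came from 1 cell.

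Sparcl1 in matrix cells was mostly a trace. It was detected in 26 of 31, 6 of 26 and 16 of 17 matrix cells of the PWD12 captures, 24 of 50 and 1 of 22 at PWD15, and 12 of 18 and 10 of 34 at PWD21, but only 5, 4, 2, 3, 1, 1 and 1 of these cells reached 10 FPKM. The share of matrix cells with any Rgs5 ran alongside, at 96.8, 30.8, 100, 80, 18.2, 100 and 44.1%, as did the share of mural cells among the kept cells of each capture, at 21.4, 15.6, 43.8, 24.7, 3.70, 23.5 and 0%. In PWD21 capture 2, which had no mural cell, 10 of 34 matrix cells still had Sparcl1. Between PWD21 and PWD12 the log2 difference of Sparcl1 was -1.51 (SE 0.84, limma adjusted p = 0.76), and between PWD15 and PWD12 it was -1.62. With stricter gates on the kinds these values were -0.25 and -0.38. The part of RNA shared between cells of a capture in these low values was not tested.

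**Figure D4:**
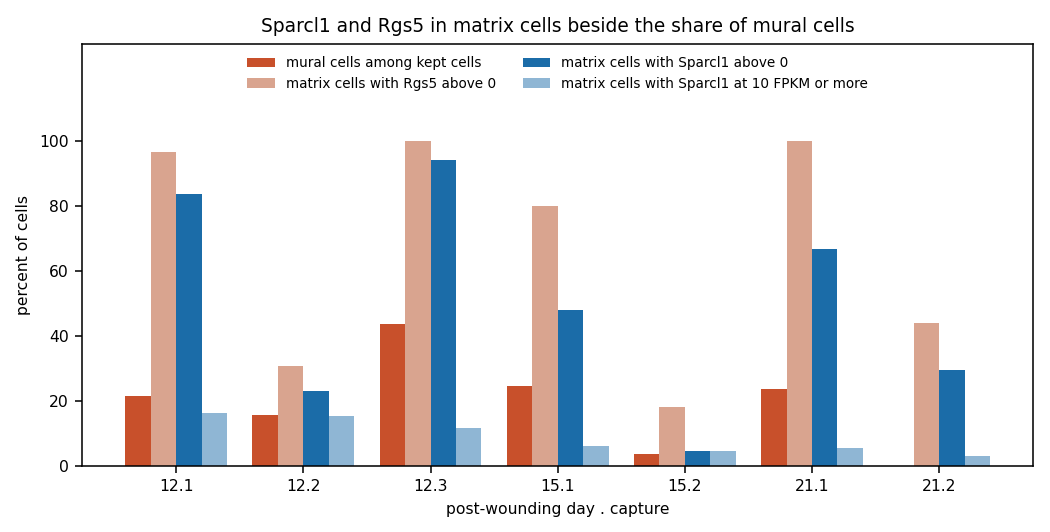
Bars give, for each capture, the percent of mural cells among kept cells and the percent of matrix cells with Rgs5 above 0, with Sparcl1 above 0 and with Sparcl1 at 10 FPKM or more. The Sparcl1 bars above 0 range from 4.55 to 94.1%, whereas those for 10 FPKM stay at or below 16.1%.

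Pairs of the genes were set against each other across the matrix cells of 1 capture, and the values describe cells of the same libraries, with no test. Thbs2 and Sparc had the highest Spearman's rho, with a median of 0.54 over 7 captures (range -0.07 to 0.56, positive in 6). Postn and Cilp (0.39), Thbs3 and Cilp (0.38) and Thbs1 and Thbs2 (0.30) were positive in 7 of 7 captures, and Postn and Tnc (0.31) in 6 of 7. Postn and Sparcl1 had the lowest median, -0.27. Sparc and Thbs2 also went with Col1a1, the gene of the matrix gate, at medians of 0.62 and 0.49, positive in all 7 captures, and Thbs1 with Tagln at 0.26, again positive in all 7.

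**Figure D5:**
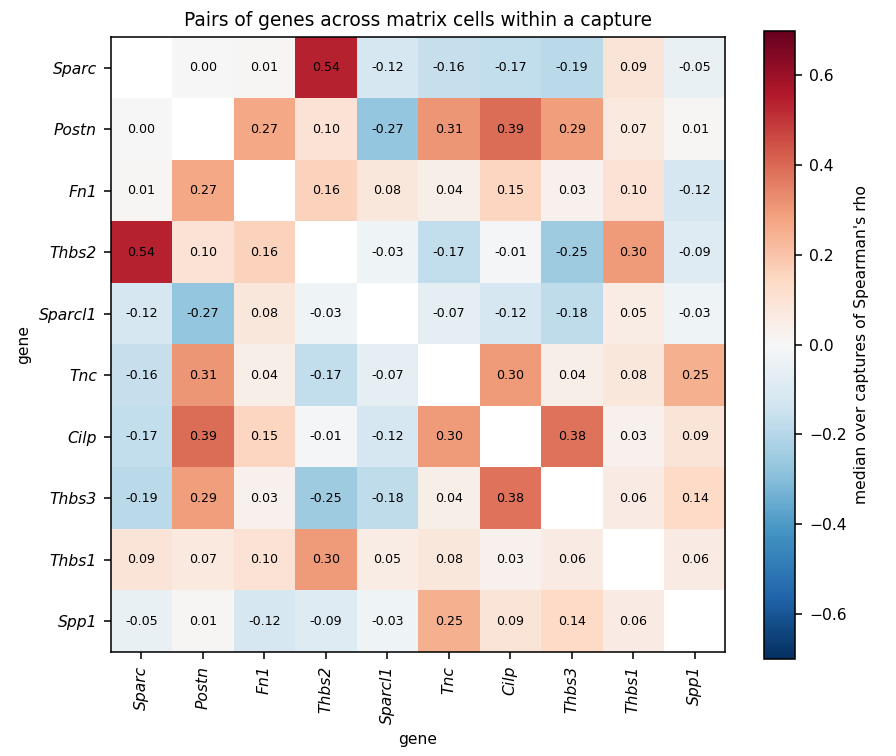
Each square is the median over captures of Spearman's rho between 2 of the 10 genes across the matrix cells of a capture (7 captures, 6 for pairs with Spp1, which is listed at 0 in PWD21 capture 1). The highest of the 45 pairs is Thbs2 with Sparc at 0.54 and the lowest is Postn with Sparcl1 at -0.27.

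Across the 16 units of kind and capture with at least 3 cells, the genes most like each member were sought among the 6778 genes that averaged 10 FPKM or more. For Thbs2 these were Col1a2, Col3a1 and Col12a1 (Pearson's r 0.976, 0.966 and 0.964), and for Sparc they were Gpx7, Serpinf1 and Col5a2 (0.988, 0.976 and 0.972). Sparcl1 was most like Vtn, Epas1 and Gja4 (0.959, 0.958 and 0.957). Postn was most like Fbln2, Ctsk and Maged1 (0.968, 0.958 and 0.953), Fn1 like Pdgfrl, Ccdc80 and Ptprs (0.968, 0.967 and 0.963), and Cilp like Dpep1, Mn1 and Pdgfra (0.939, 0.921 and 0.921). Tnc reached 0.944 with Tulp4, Thbs1 0.896 with Prnp and Thbs3 0.888 with Eef2kmt. Spp1 had no gene above 0.793, which it reached with mt-Atp8. These units share captures and fall into the 3 kinds, and no p is given.

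The relatives and receptors of these proteins were followed from lists of 22 and 17 genes. Of all 13823 genes tested between mural and matrix cells, 0.76% were called lower and 0.948% higher. Of the relatives, 13 were tested between mural and matrix cells and 2 were called, both lower: Fstl1 of the SPARC family, at 6927 against 13410 FPKM (log2 difference -1.0, SE 0.10, limma adjusted p = 0.0015), and Tgfbi, the closest relative of periostin, at 4.83 against 47.1 FPKM (-3.26, SE 0.60, adjusted p = 0.027). The other tenascins, thrombospondins, CCN and SIBLING proteins had none past the threshold, with Tnn at -3.40 (SE 0.92), Thbs4 at -1.77 (SE 0.81), Ccn4 at -2.06 (SE 0.52) and Ccn1 at -0.12 (SE 0.37) on the log2 scale. Ibsp and Dmp1 were the SIBLING genes tested, at 0.50 (SE 0.64) and 1.68 (SE 0.74). None of 14 receptors tested was called. The 2 most abundant were the integrin subunit Itgav, at 428 FPKM in mural and 221 in matrix cells, and the proteoglycan Sdc4, at 131 and 329.

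In myeloid against matrix cells, 5 of 11 relatives tested were lower and none higher, namely Tnn, Ccn1, Ccn4, Smoc2 and Fstl1, with log2 differences of -3.75, -4.66, -4.95, -5.44 and -4.40 (limma adjusted p from 0.014 to 0.049). Of all 13059 genes, 4.9% were called lower and 1.69% higher in this comparison. Leaving out any capture lowered the number of genes called, and the calls in these lists were not followed that way. Tgfbi was not called, at 113 FPKM in myeloid and 33.3 in matrix cells. Of 15 receptors, 2 were higher: Stab1, a scavenger receptor that takes up Sparc, at 491 against 0.583 FPKM (log2 difference 8.31, SE 1.00, adjusted p = 0.0013), and Cd36, which binds Thbs1, at 85.8 FPKM where it was listed at 0 in matrix cells (adjusted p = 0.045).

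Between PWD21 and PWD12 none of the 12 relatives and 14 receptors tested in matrix cells was called, and the same held for the other pairs of days. The tenascin Tnn averaged 6.04 FPKM at PWD21 and 59.6 at PWD12 (log2 difference -3.05, SE 0.72, limma adjusted p = 0.40). Thbs4 averaged 2.75 and 13.7 FPKM, and Tgfbi 29.7 and 58.4. Of the CCN genes, Ccn1 averaged 291 and 140 FPKM and Ccn5 261 and 23.1 (log2 difference 3.98, SE 1.29, adjusted p = 0.56), and Ibsp was listed at 0 and 3.04. Fstl1 (16470 and 13410 FPKM) and Smoc2 (82.3 and 34.6) led the SPARC family, and Itgav (231 and 202) and Sdc4 (450 and 283) the receptors.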

How the data were processed

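Single-cell RNA was read from the deposited tables of 7 captures, in which the authors give FPKM per gene and cell. The submitters' processing notes name Bowtie 1.0.0, RSEM and the mm10 build. Identifiers were named with GENCODE mouse release 21 (50376 of 50600 matched), and no column was left unused. The labels of the 40 cells of PWD12 capture 3 point to the table of capture 2, which holds 65 cells, and the PWD12 table with 40 cells was taken as capture 3. Fragments per cell were estimated from the steps between FPKM values, and the estimate was tested on simulated cells. Cells with fewer fragments than the study's minimum of aligned reads, more than 11000 genes or more than 15% mitochondrial FPKM were left out (75 of 367). The median depth of a capture ranged from 959462 to 2378573 estimated fragments. Per the study's methods, wells holding more than 1 cell were excluded by imaging; doublets were not called here.

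Cells of a kind in a capture (at least 3) were averaged, and log2(mean FPKM + 1) was compared, for genes averaging 1 FPKM or more, with limma 3.58.1 (R 4.3.3, variance trend, two-sided, Benjamini-Hochberg adjusted p below 0.05), tested on simulated data. A fold change on this scale understates the change of low genes. Same-numbered captures of different days correlated at -0.007 to 0.025, so numbers do not pair captures and days were compared without a block. Kinds of 1 capture were paired by the capture. The 10 genes and the lists were chosen with earlier results of these data known. Related genes were named if called, at most 4 a list and comparison, or else the 2 with the highest mean. Alternatives changed the pseudocount, low-value filter, scaling, cell filter, averaging, gates, block, variance trend and captures. The droplet data and other assays were not analysed here.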

Additional observations from a re-analysis of the deposited data

Results flagged for a closer look

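One of 20 sets of capture-wise differences (10 genes in mural and in myeloid cells) held a capture far from the others. For Fn1, mural minus matrix cells of PWD15 capture 1 differed by -2.85 on the log2 scale, while the other 4 captures lay between -1.10 and -0.57. About 1 set in 20 is expected to be marked in this way by chance. The mean of Fn1 in that capture was 83.2 FPKM in 18 mural cells and 607 in 50 matrix cells.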

How the results depend on the processing

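Among results for the 10 genes under alternatives, 693 kept their direction and side of the threshold, 43 lost the call, 6 gained it and 28 changed sign. Scaling each cell to the same total reversed none. Averaging over log2 values gave 28 genes for PWD15 against PWD12 (0 otherwise) and, for PWD21 against PWD12, 70 genes and 2 members. For the latter, stricter gates gave 2 genes (1 otherwise), and a pseudocount of 0.1, no low-value filter, scaling, and a replicate block on the capture number (which changed no other call between days) gave 0, as did each omitted capture (0 to 0). A pseudocount of 10 gave 1 gene for PWD21 against PWD15. In mural against matrix cells, no low-value filter left 19 genes and 1 member, log2 averages gave 657 genes, no variance trend (added after seeing the data) 90 genes and 2 members, and omitted captures 102 to 228 genes. In myeloid against matrix cells, a pseudocount of 10 left 183 genes and 2 members, no low-value filter 31 and 0, scaling gave 1365 genes (223 higher and 1142 lower, against 221 and 640), no cell filter 485, leaving out the Col1a1-holding cells 1360, and omitted captures 108 to 340 genes and 0 to 4 members. Without the replicate block, 251 genes were called for mural cells and 1236 for myeloid cells, with 5 and 4 members. The cause of these shifts was not tested.

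Sign changes were in differences that were not called, and for omitted captures the lowest and highest values are given. Between PWD15 and PWD12, omitted captures gave -0.40 to 0.02 for Tnc, -0.80 to 0.94 for Thbs1, -0.84 to 0.38 for Thbs3 and -0.56 to 1.10 for Cilp. Thbs1 was 0.09 and Thbs3 0.08 with stricter gates, Thbs3 was 0.38 with the replicate block, and Cilp was -0.83 with log2 averages. Between PWD21 and PWD12, Thbs1 was -0.29 with no cell filter, -0.56 with the replicate block and -0.56 to 1.18 over omitted captures. Between PWD21 and PWD15, omitted captures gave -0.02 to 0.51 for Thbs1, -0.44 to 0.24 for Thbs2, -0.63 to 0.26 for Sparc and -0.81 to 1.02 for Sparcl1, Thbs2 was 0.01 with no cell filter, and Sparcl1 was -0.01 with a pseudocount of 10. For mural cells Spp1 ranged from -1.15 to 0.61 over omitted captures, and for myeloid cells log2 averages gave 0.42 for Spp1 and 0.28 for Sparcl1. With 2 or 3 captures a day, the comparisons of days missed most changes planted in simulated data, and the myeloid comparison missed all of them. The simulated data held far fewer changed genes than the 861 called in the real myeloid comparison, so they do not show what it can find. A gene that did not pass is not shown to be unchanged.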
